A study of Mus musculus with 3 samples.

Results

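The 3544 MEIS2 peaks described here lie deep inside long genes. They are peaks of MEIS2 replicate 1 on chromosomes 1 to 19 that share at least 1 bp with a peak of MEIS2 replicate 2 and none with a peak of a library made without antibody. Their summits fall inside a protein-coding gene longer than 100 kb, over 50 kb from both of its ends and over 1 kb from the ends of every other annotated gene. They are 3544 of the 44673 peaks on these chromosomes that were reproducible in this sense (7.93%, 95% Wilson interval 7.69 to 8.19). The replicate 1 list held 78375 peaks in all and 73347 on these chromosomes, of which 60.9% were reproducible. The peaks came from CUT&Tag, in which an antibody brings the Tn5 transposase to a chromatin protein so that the DNA nearby is cut and tagged. Both MEIS2 libraries were made from the lateral ganglionic eminence (LGE) of E14.5 embryos of the CD1 mouse strain, stained with a polyclonal mouse antibody to MEIS2, and the 1 control library came from the same tissue, strain and age with no primary antibody. No genotype or treatment is given for the embryos. Each library started from 100000 cells. Nothing in the labels says whether the 2 MEIS2 libraries came from separate litters, so the spread between them may be technical.

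MEIS2 is a homeodomain protein of the TALE class that binds DNA with PBX partners and is present in progenitors and young neurons of the LGE, from which the projection neurons of the striatum arise. Long introns of brain genes are known to hold enhancers, and long genes often have further promoters inside the gene body that start shorter isoforms. A peak far from both ends of its gene can therefore lie at an enhancer, at an internal promoter or at neither, and the deposited peak lists do not tell these apart. Internal promoters could be set against the peaks here because RefSeq lists start sites for many genes, with the 300 bases around each (250 before and 50 after). The values given for a peak are the fold enrichment, the tags stacked at the summit relative to the number expected locally, and the pileup, the number of stacked tags itself. Where a pair of values is given for a peak, replicate 1 comes first and replicate 2 second.

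Internal promoters that carried a deep MEIS2 summit were rich in CG dinucleotides, and those without one were mostly not. The pairs of windows below, each from 1 gene and shown 5′ to 3′ on the strand of the gene in GRCm38.p6 (mm10), make this visible. Capitals mark CG dinucleotides. In each pair the window that held a MEIS2 summit comes first. These genes were chosen after their values were seen, because each is known in the developing brain: Foxp1 is a forkhead transcription factor of striatal neurons, Robo2 a receptor for the Slit guidance proteins and Cacna1c the pore of an L-type calcium channel.
Foxp1 at chr6:99028249-99028548, minus strand, with a summit: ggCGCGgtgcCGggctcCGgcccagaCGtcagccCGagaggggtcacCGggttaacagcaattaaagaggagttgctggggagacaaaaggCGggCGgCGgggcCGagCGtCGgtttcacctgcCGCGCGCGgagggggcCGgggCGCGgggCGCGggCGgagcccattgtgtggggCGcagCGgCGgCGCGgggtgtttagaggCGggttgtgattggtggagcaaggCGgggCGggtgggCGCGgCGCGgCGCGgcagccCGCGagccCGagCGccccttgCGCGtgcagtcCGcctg
Foxp1 at chr6:99266466-99266765, minus strand, without: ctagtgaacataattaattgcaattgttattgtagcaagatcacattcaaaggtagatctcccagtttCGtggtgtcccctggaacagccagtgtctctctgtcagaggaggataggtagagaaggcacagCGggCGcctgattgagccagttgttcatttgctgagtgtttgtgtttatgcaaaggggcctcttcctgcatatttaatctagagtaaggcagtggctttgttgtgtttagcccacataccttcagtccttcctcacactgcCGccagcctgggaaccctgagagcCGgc
Robo2 at chr16:74411776-74412075, minus strand, with a summit: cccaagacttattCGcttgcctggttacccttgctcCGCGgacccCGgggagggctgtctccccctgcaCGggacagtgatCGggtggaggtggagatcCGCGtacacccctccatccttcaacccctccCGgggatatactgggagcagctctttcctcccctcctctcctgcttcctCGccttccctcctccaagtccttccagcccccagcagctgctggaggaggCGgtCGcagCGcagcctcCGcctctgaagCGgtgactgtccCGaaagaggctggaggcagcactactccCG
Robo2 at chr16:75092721-75093020, minus strand, without: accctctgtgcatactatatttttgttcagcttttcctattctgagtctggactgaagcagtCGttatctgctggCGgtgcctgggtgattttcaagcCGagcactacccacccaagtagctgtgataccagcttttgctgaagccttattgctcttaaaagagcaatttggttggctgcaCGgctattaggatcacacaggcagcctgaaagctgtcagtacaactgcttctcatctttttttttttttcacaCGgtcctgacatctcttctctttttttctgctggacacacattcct
Cacna1c at chr6:119108446-119108745, minus strand, with a summit: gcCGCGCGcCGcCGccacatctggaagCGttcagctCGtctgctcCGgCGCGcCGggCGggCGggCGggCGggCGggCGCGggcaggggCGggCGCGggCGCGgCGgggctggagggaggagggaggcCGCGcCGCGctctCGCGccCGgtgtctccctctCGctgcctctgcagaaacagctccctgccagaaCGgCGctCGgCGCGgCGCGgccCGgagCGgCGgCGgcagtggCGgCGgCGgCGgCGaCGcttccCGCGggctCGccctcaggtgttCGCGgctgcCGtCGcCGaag
Cacna1c at chr6:118757925-118758224, minus strand, without: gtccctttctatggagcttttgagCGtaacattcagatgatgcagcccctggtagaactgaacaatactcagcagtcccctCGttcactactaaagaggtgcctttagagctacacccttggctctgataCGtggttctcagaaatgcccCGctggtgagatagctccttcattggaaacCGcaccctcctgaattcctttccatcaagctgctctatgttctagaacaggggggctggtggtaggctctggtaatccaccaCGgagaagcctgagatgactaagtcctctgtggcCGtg

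The Foxp1 window with a summit held 44 CG dinucleotides and the one without held 5. The counts were 17 and 5 in Robo2 and 57 and 7 in Cacna1c. The peak at the first Foxp1 window, chr6:99027978-99028870, had fold enrichments of 9.04 in replicate 1 and 7.18 in replicate 2, with pileups of 18 and 12. Its summit lay 109 bp upstream of the listed start site, which is 494 kb from the annotated 5′ end of the gene. The Robo2 peak, chr16:74411643-74412182, had 7.06 and 4.46 with pileups of 11 and 6, and its start site lies 1036 kb from the annotated 5′ end. The Cacna1c peak, chr6:119108366-119108581, was 216 bp wide with 4.81 and 5.19 and pileups of 12 and 10. Its fold enrichments were below the lower quartiles over all deep peaks, 5.88 and 5.24. Its pileups were above theirs, 11 and 8.

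The RefSeq table used here lists 462 promoter windows whose start sites meet the same rule of position, in 344 genes. It has no start site on chromosome 18, so all counts of windows leave that chromosome out. A deep MEIS2 summit lay in 35 of them (7.58%), against 12.4% of the 30934 other windows of the table with a reproducible summit. No no-antibody summit fell in any of the 462 windows, and 13 of the 30934 other windows (0.0420%) held one. The 35 windows with a summit had a median of 26 CG dinucleotides and a GC content of 68.7%, and the 427 internal windows without a reproducible summit had 5 and 48.7%. The share with a summit followed the CG count and was close to that of start sites elsewhere at the same count. With 20 or more CG dinucleotides, 22 of 59 internal windows (37.3%) held a summit, against 3179 of 8432 other windows (37.7%). With 10 to 19 the shares were 11 of 78 (14.1%) and 574 of 5231 (11.0%). With 4 to 9 they were 2 of 194 (1.03%) and 83 of 7701 (1.08%), and with 0 to 3 they were 0 of 131 and 9 of 9570 (0.0940%). Of 13 genes with both kinds of internal window, the window with the summit held more CG dinucleotides in 12, and Fgf12, which codes for a fibroblast growth factor homologue that acts inside cells, was the exception, with 29 at its summit and 34 in another window without one. These are counts over windows of 1 set of peaks, and no test was run on them. Windows were scored by the summit alone, so a window without a summit can still lie under a deep peak. An Abr window without a summit, chr11:76494446-76494745, lies inside the deep peak chr11:76494272-76495267. A Fgf12 window without a summit, chr16:28564902-28565201, overlaps chr16:28564394-28565144, the peak with its summit in the first Fgf12 window.

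**Figure D1:**
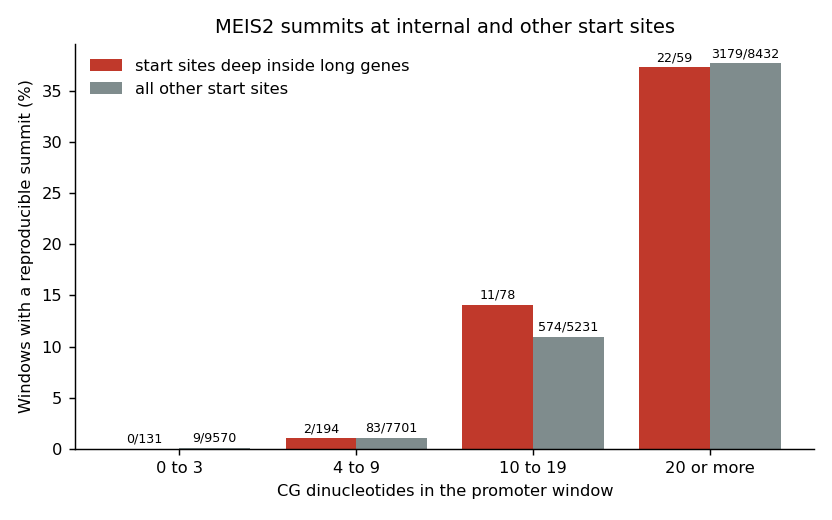
Share of 300-base promoter windows with a reproducible MEIS2 summit (vertical axis, %), by the number of CG dinucleotides in the window (horizontal axis), for start sites deep inside long genes and for all other start sites of the RefSeq table. The numbers above the bars are windows with a summit over all windows, and the bars of each pair are close in height, up to 37.3% and 37.7% with 20 or more.

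The windows were also searched for the core of the MEIS site, the letters TGACAG on either strand. It was present in 4 of the 35 internal windows with a summit (11.4%), in 96 of the 427 without (22.5%) and in 19.05% of all 31396 windows on these chromosomes. The windows with a summit are richer in GC, so the letters have different odds of occurring in them. No match says only that the letters are not in that window. Nav2, a gene of the neuron navigator family, has 1 match in the window of its internal start site, 287 kb from the annotated 5′ end. The window is printed because it is 1 of those 4, with the match in capitals, as the reverse complement of TGACAG.
Nav2 at chr7:49245939-49246238, plus strand: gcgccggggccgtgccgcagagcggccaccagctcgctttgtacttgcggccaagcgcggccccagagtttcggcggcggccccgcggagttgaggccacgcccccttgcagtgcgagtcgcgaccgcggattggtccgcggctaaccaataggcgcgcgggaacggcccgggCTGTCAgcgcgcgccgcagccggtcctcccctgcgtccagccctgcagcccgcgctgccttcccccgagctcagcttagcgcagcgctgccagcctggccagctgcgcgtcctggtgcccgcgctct

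The Nav2 summit lay 42 bp upstream of that start site, with fold enrichments of 8.34 and 6.22 and pileups of 27 and 15. The other 3 windows with a match belong to Frmd4b, Mtus2 and Phactr2. Among internal windows with a summit the highest fold enrichment was at Slc24a3, a gene for a sodium, potassium and calcium exchanger. Its peak, chr2:145242209-145242711, had 20.1 and 20.8 with pileups of 72 and 64. The next highest among these windows by the lower of its 2 values was at a start site of Filip1l inside Cmss1, where the peak chr16:57549028-57549514 had 11.3 and 12.03 and pileups of 21 and 20. It was followed by Pcgf5, a gene of the Polycomb group, with 9.90 and 11.8 and pileups of 21 and 22. The Slc24a3 window is shown in full with CG dinucleotides in capitals, because it holds the longest direct repeat of the 462 windows.
Slc24a3 at chr2:145242361-145242660, plus strand: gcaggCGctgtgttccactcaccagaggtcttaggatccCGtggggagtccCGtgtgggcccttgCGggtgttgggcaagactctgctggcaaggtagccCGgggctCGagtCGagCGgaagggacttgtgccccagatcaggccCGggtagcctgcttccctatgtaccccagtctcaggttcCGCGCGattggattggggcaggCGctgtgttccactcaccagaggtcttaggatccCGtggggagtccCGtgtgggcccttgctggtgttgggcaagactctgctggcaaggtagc

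The first 66 bases of this window recur exactly from base 202 of the window onward. The median longest repeat over the 462 windows was 8.5 bases and the next longest was 48, in a window of Cntn1 without a summit. How repeats bear on the placing of reads and on the fold enrichment was not tested.

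With the distance widened to 1 kb from the summit to a listed start site, 113 of the 3544 deep peaks (3.19%) were at an internal start site, and for 109 of them the start site belonged to a host gene. The background over all reproducible peaks was 22.2% (9898 of 44673), peaks at gene ends included. Neither count could include a peak on chromosome 18, where the table lists no start site. The 167 deep peaks of chromosome 18 could not be scored and are counted with the peaks not at a start site. The table also gives no start site for some genes of other chromosomes, so 113 is a minimum. Deep peaks at a start site were wider, with medians of 574 bp in replicate 1 and 473 bp in replicate 2, against 321 and 290 bp for the other 3431. Their median fold enrichments were 8.37 and 6.71, against 7.67 and 7.01. They were thus higher in replicate 1 and lower in replicate 2, so fold enrichment showed no difference that held in both libraries. The second highest after Slc24a3 among the 113 was in Fut8, a fucosyltransferase gene, with 19.2 and 18.3 and pileups of 94 and 93, and its summit lay 888 bp from the start site. The Foxp1, Fgf12 and Fgf14 peaks are also among the 113. Fgf14, a relative of Fgf12 that acts on sodium channels, had 8.85 and 3.83 with pileups of 15 and 5, and its summit lay 2 bp from the listed start site.

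Deep peaks varied widely among themselves. Over the 3544, fold enrichment ran from 2.74 to 27.1 in replicate 1 with a median of 7.74, and from 3.04 to 28.1 in replicate 2 with a median of 7.01. Pileups ran from 5 to 104 with a median of 16, and from 4 to 93 with a median of 12. Fold enrichment was the higher in replicate 1 for 2315 of the peaks (65.3%), near the 66.9% over all reproducible peaks. For 2961 deep peaks (83.5%) the 2 values lay within 1.5-fold of each other. The ranks of the 2 replicates had a Spearman correlation of 0.753 across peaks, given as a description, since the peaks of a library share its depth. Summits of the 2 replicates lay a median of 30 bp apart, and 2315 pairs (65.3%) were within 50 bp, a count that happens to equal the one above. The median distance was 71 bp at gene ends, 43 bp elsewhere in gene bodies, 31 bp near genes and 27 bp in deserts, with the value of deep peaks close to the intergenic ones.

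**Figure D2:**
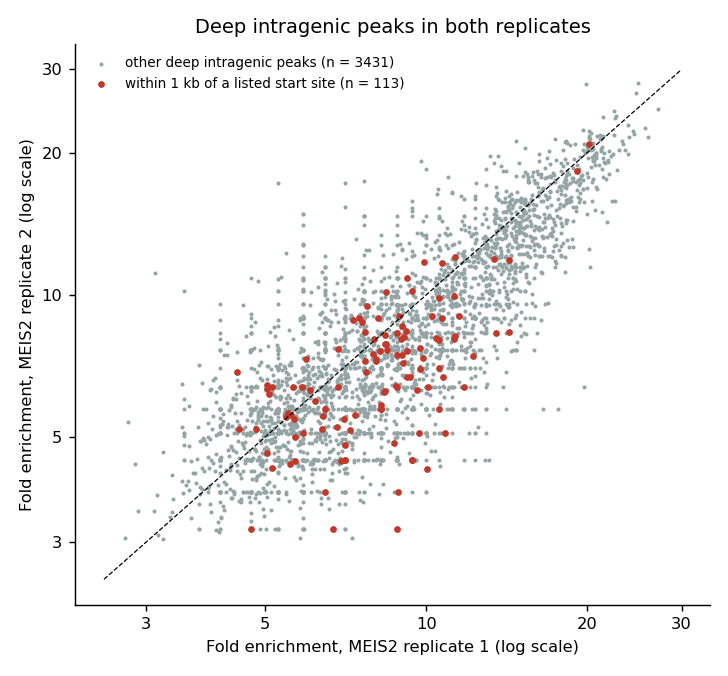
Fold enrichment of the 3544 deep intragenic peaks in MEIS2 replicate 1 (horizontal) and replicate 2 (vertical), both on log scales, with a dashed line of equality. Red points are the 113 peaks within 1 kb of a listed start site, and grey points are the other 3431. The grey points include all peaks of chromosome 18, where no start site was listed. Most points follow the line, and the red points lie mostly in the middle of the range, with Slc24a3 (20.1 and 20.8) and Fut8 (19.2 and 18.3) furthest up.

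The strongest deep peaks were found in genes of many kinds. By the lower of the 2 fold enrichments, the first was in Samd5, chr10:9581298-9581660, with 24.8 and 28.1 and pileups of 55 and 63. It was followed by a peak in Esr1, the oestrogen receptor alpha gene, chr10:4730198-4730585, with 27.1 and 24.7 and pileups of 62 and 53. The third was in Alk, a receptor tyrosine kinase gene, chr17:72464862-72465291, with 24.7 and 26.7 and pileups of 64 and 63. The other 7 of the top 10 lay in Thsd7a (23.8 and 22.9), A830018L16Rik (22.6 and 23.9), Htr1f, which codes for a serotonin receptor (22.6 and 23.7), Exoc4, an exocyst subunit (25.6 and 22.6), Kcnh7, a potassium channel (22.4 and 24.5), Ttll11, an enzyme that modifies tubulin (24.4 and 22.2), and Snrpn, an imprinted gene of RNA splicing (24.5 and 21.9). Of the 10, the Exoc4 peak lay deepest, 355 kb from the nearer end of its gene. The Ttll11 peak was 51.0 kb from an end, just past the limit. None of the 10 was within 1 kb of a listed start site, and the closest was the Esr1 peak, 20197 bp away. The 100 peaks with the highest lower value had a median pileup of 61.5 in replicate 1 and 59 in replicate 2, and a median width of 502.5 bp, against 15, 12 and 321 for the rest.

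The weakest deep peaks were in Malrd1 (2.85 and 4.39), Ephb2, an ephrin receptor gene (2.77 and 5.38), and Abr, a gene for a GTPase regulator (2.74 and 3.06). The Abr peak had high pileups of 33 and 31 beside its low ratio, so it stood on a high local level. The widest were in Gm38510 at 2960 bp, Filip1 at 2643 bp, Sorcs2, a sortilin-family receptor gene, at 2190 bp, Gpc6, a glypican gene, at 1888 bp and Marchf1, a ubiquitin ligase gene, at 1856 bp. Of these 5, the Gpc6 and Marchf1 peaks had fold enrichments over 7 in both replicates, 7.66 and 7.77 in Gpc6 and 7.23 and 9.06 in Marchf1.

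Set beside other positions, deep peaks were as narrow as those away from gene ends in general and more often of high fold enrichment than those at gene ends. A fold enrichment of at least 10 in both replicates was reached by 763 deep peaks (21.5%), by 474 of 13147 at gene ends (3.61%, summits within 1 kb of any gene end), by 1226 of 12623 elsewhere in gene bodies (9.71%), by 2047 of 11274 between genes within 50 kb of one (18.2%), and by 1082 of 4085 in deserts further from genes (26.5%). Medians differed less. They were 7.74 and 7.01 for deep peaks, 7.46 and 6.32 at gene ends, 6.47 and 5.74 elsewhere in gene bodies, 7.51 and 6.69 near genes and 8.23 and 7.61 in deserts. The order of deep peaks among these was the same in both replicates, below deserts and above the other positions. The gap between deep and gene-end medians in replicate 1 was smaller than the gap between the replicates. Median widths were 327 and 294 bp for deep peaks and 555 and 446 bp at gene ends. No test was run between positions, since peaks of 1 library are not replicates.

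**Figure D3:**
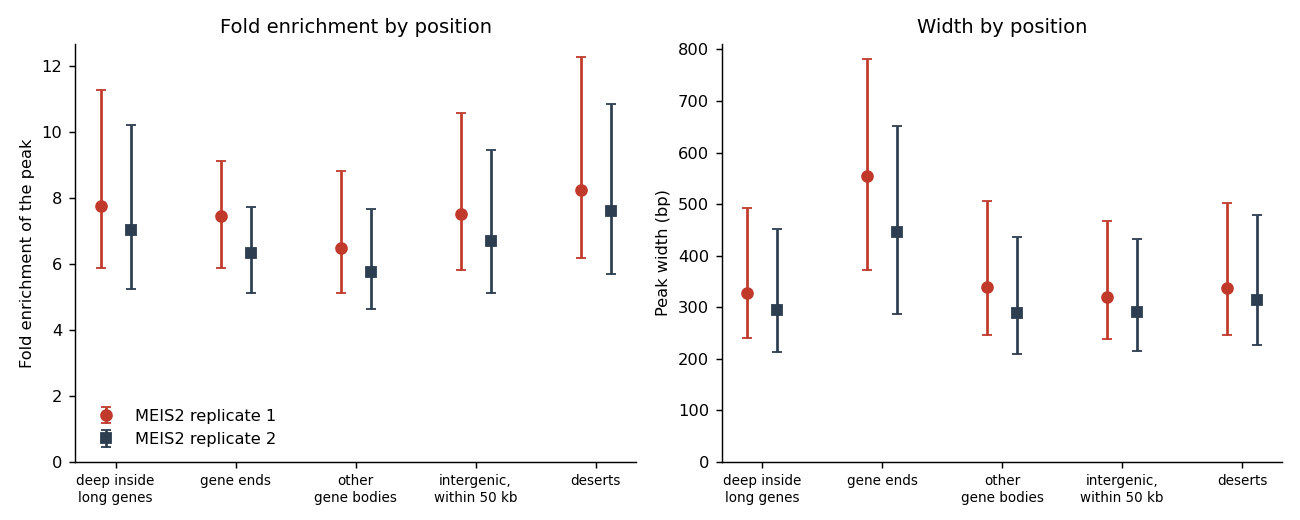
Median fold enrichment (left) and width in bp (right) of reproducible peaks by position, for MEIS2 replicate 1 (circles) and replicate 2 (squares), with bars from the lower to the upper quartile. Deep peaks, at the far left, have an upper quartile of fold enrichment of 11.3 in replicate 1, above the 9.12 at gene ends, and a narrower width than gene-end peaks.

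Deep positions were sparse in MEIS2 peaks. The gene interiors that meet the rule cover 349.6 Mb and held 10.1 reproducible peaks per Mb, against 17.0 elsewhere in gene bodies, 14.01 near genes, 10.5 in deserts and 85.4 at gene ends. For no-antibody peaks the deep interiors held 3.36 per Mb (1176 peaks), against 2.41, 4.50, 4.81 and 1.37 at the same positions. The replicate 1 list had 6304 deep peaks and the replicate 2 list 7592. Of the 6304, 539 (8.55%, Wilson interval 7.88 to 9.27) overlapped a no-antibody peak, beside a background of 5.73% over all replicate 1 peaks, 0.703% at gene ends and 13.8% in deserts. In replicate 2 it was 698 of 7592 (9.19%). Of the 5765 clear of no-antibody peaks, 3544 (61.5%) had a replicate 2 partner, a share near the background of 64.6%. The rule uses this overlap, so the count is a description only. Taken from replicate 2, 3567 of 6894 (51.7%) had a replicate 1 partner, against 63.7% over all positions.

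Both shares were highest among the strongest peaks. In the lowest decile of deep replicate 1 peaks by fold enrichment, 15 of 631 (2.38%) overlapped a no-antibody peak and 177 of the 616 others (28.7%) had a replicate 2 partner. In the highest decile, from 14.4 upward, 183 of 631 (29.0%) overlapped a no-antibody peak and all 448 others had a partner. The 506 deep peaks with a replicate 2 partner that were set aside for a no-antibody peak had a median fold enrichment of 12.3 and a median pileup of 72 in replicate 1, against 7.74 and 16 for the 3544 kept. The no-antibody library is 1 library with its own threshold, and whether weaker no-antibody signal lies under the kept peaks was not tested. Its nearest summit was a median of 116 kb from a deep peak, and 50 deep peaks (1.41%) had one within 1 kb.

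Pooled over all eligible genes, density was lower and median fold enrichment higher at greater depth. Only very long genes reach the greater depths, and depths were not compared within single genes. Depth and gene length therefore cannot be told apart here. From 50 to 75 kb of the nearer end there were 974 deep peaks, 11.4 per Mb, with medians of 7.38 and 6.42. From 200 to 300 kb there were 386, or 8.85 per Mb, with 8.40 and 7.61. Beyond 500 kb there were 129, or 7.15 per Mb, with 9.41 and 8.79. No-antibody peaks ran the other way, with 2.88 per Mb at 50 to 75 kb, 3.96 at 200 to 300 kb and 3.88 beyond 500 kb. The Spearman correlation of the lower fold enrichment with depth was 0.104 over the 3544 peaks. Measured along the gene from its annotated 5′ end, for 2720 peaks with 1 host gene of known strand, the 5 equal parts of the interior held 18.97, 20.6, 19.9, 19.9 and 20.7% of the peaks. At the limit of the rule, the 2 peaks just inside were in Phf14 (50009 bp, 5.88 and 8.93) and Acaca (50031 bp, 9.62 and 10.7), and the 2 just outside in Grin2a (49979 bp, 6.47 and 5.74) and Zfp407 (49974 bp, 4.12 and 5.10).

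**Figure D4:**
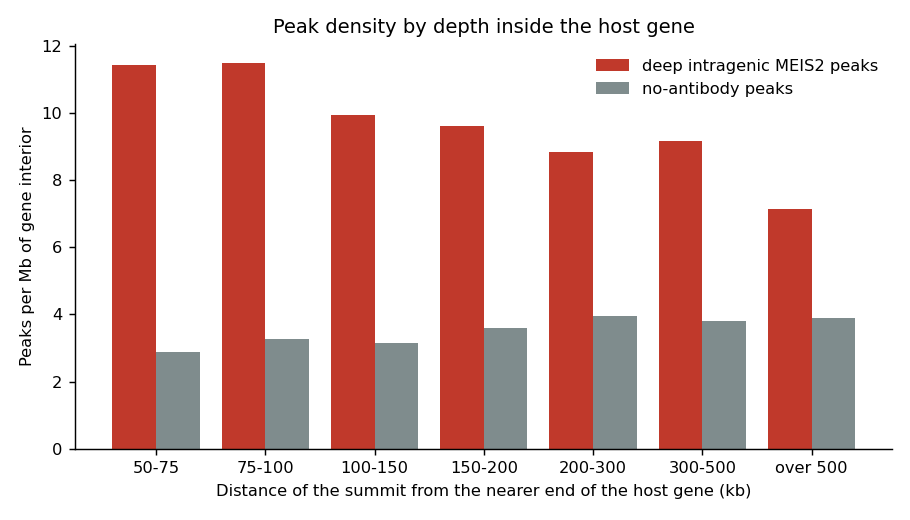
Peaks per Mb of gene interior (vertical axis) by the distance of the summit from the nearer end of the host gene (horizontal axis, kb), for deep intragenic MEIS2 peaks and for no-antibody peaks. MEIS2 density is 11.4 per Mb at 50 to 75 kb and 7.15 beyond 500 kb, and no-antibody density is 2.88 and 3.88 at the same depths.

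Of 2312 eligible genes, 1212 (52.4%) held a deep peak: 478 held 1, 501 held 2 to 4, 184 held 5 to 9 and 49 held 10 or more. The number followed the room available. Genes with a deep peak had a median of 153 kb of eligible interior and the 1100 without had 29.0 kb, and the Spearman correlation of count with interior was 0.705 over genes. The share with a deep peak was 21.2% of 942 genes with up to 50 kb of interior and 74.3% of 408 with 100 to 200 kb. It was 91.4% of 313 with 200 to 400 kb, 98.6% of 141 with 400 to 800 kb, and all of the 69 with over 800 kb. Pooled density was 1.33 per 100 kb with up to 50 kb of interior, 1.16 with 50 to 100 kb and 1.21 with 100 to 200 kb. It was 1.07 with 200 to 400 kb, 0.959 with 400 to 800 kb and 0.825 with over 800 kb. A no-antibody peak was found in the deep interior of 598 genes (25.9%), and 501 of these also held a deep MEIS2 peak. Over all eligible genes 52.4% held a deep peak, but interior length was not matched between these sets.

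The highest counts were in the clustered protocadherins on chromosome 18. Gm37013, Gm38666 and Gm38667, which overlap along that cluster, held 32, 30 and 29. These 3 loci are nested, so the counts are largely of the same peaks. Pcdha1, the first of the alpha genes, held 9. Over all genes, 40 of the 3544 peaks had more than 1 host. Next came Camta1, a calmodulin-binding transcription activator, with 23 in 677 kb of interior (3.40 per 100 kb, against 1.01 over all interiors) and no no-antibody peak. Its strongest, chr4:151493375-151493625, had 11.0 and 9.88. Lsamp, an adhesion protein of the limbic system, had 21 in 2080 kb and 7 no-antibody peaks. Gpc6 had 19, Csmd1, a transmembrane protein with complement-control domains, 17, Cntnap2, a neurexin relative, 17, Pde4d, a cAMP phosphodiesterase, 16, and Fhit, a hydrolase gene at a fragile site, 15. In Fhit and Cntnap2 the interiors held 10 and 12 no-antibody peaks.

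Per 100 kb of interior, genes with at least 100 kb of it were led by Pcdha1 (6.53), Abr (5.85), Tns1 (5.43), Cacna1a (5.06) and Gm37013 (5.06). Tns1 codes for a tensin that ties integrins to actin, and Cacna1a for the pore of the P/Q-type calcium channel. The 10 Cacna1a peaks were of modest strength, with lower fold enrichments of 4.27 to 6.69, and no no-antibody peak lay among them. The 6 Abr peaks include summits 10, 54 and 288 bp from listed start sites, and 3 no-antibody peaks lay in the same interior. The longest interiors without any deep peak were those of Syt1, the calcium sensor of synaptic vesicles (410 kb), Pde4b, a cAMP phosphodiesterase (407 kb), Dennd1a, an endocytic regulator (388 kb), Grin2b, an NMDA receptor subunit (356 kb), and Tmem117 (351 kb). At an end, each of the 5 carried a reproducible summit closer than 1 kb. Meis2 itself had none in its 106 kb of interior, nor did Tcf12, an E-protein gene, in 163 kb.

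**Figure D5:**
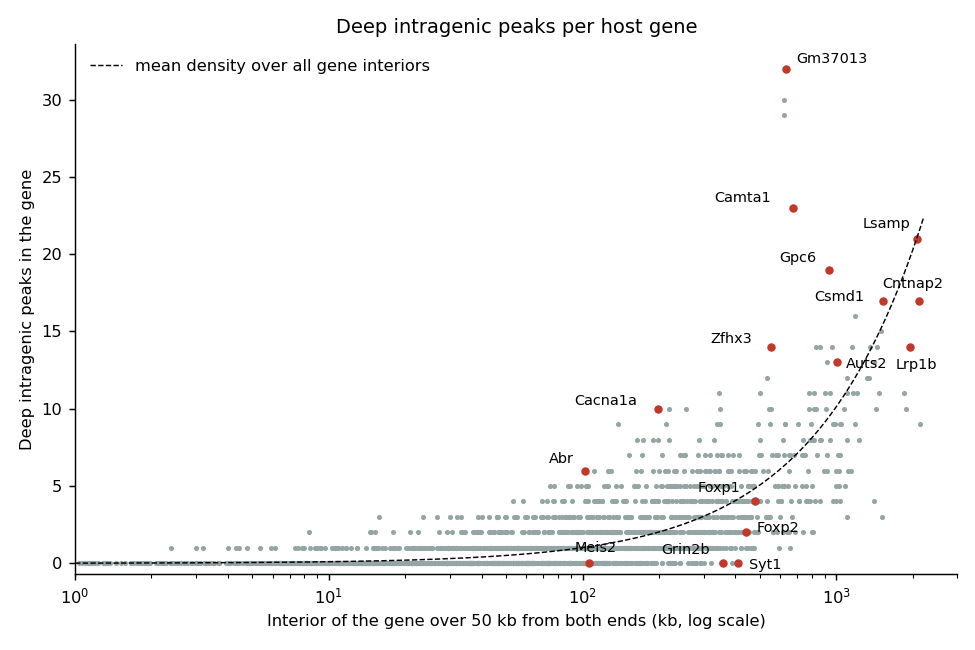
Number of deep intragenic peaks in each eligible gene (vertical axis) against its interior over 50 kb from both ends (horizontal axis, kb, log scale). The dashed line is the mean density over all interiors, 10.1 per Mb, and red points are named genes. Camta1 with 23, Zfhx3 with 14 and Cacna1a with 10 lie above the line, Lsamp close to it, and Syt1 and Grin2b at 0.

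Genes with and without a deep peak carried a peak at their own ends about equally often. A reproducible summit lay at most 1 kb from an end in 794 of the 1212 genes with a deep peak (65.5%, Wilson interval 62.8 to 68.1) and in 742 of the 1100 without (67.5%, 64.6 to 70.2), beside 66.4% of all eligible genes. Where the strand was known, the 5′ end carried it in 594 of 916 genes with a deep peak (64.8%) and in 575 of 856 without (67.2%), and the 3′ end in 3.60% and 2.92%. With 100 to 200 kb of interior the shares were 67.3% with a deep peak and 72.4% (76 of 105 genes) without. With 200 to 400 kb they were 64.0% (183 of 286) and 55.6% (15 of 27). The order turned between the 2 size classes, but the last share rests on only 27 genes.

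Some deep peaks came in short runs. The nearest other deep peak was a median of 32.9 kb away, and 577 (16.3%) had one within 5 kb, in 253 runs, 59 of them of 3 or more. The longest runs held 4 peaks, and there were 12 of these. The one with the highest fold enrichment was in Lsamp, chr16:41195303-41201397, where the 4 peaks had 8.16 and 7.63, 5.53 and 6.79, 3.12 and 11.1, and 11.0 and 11.1. The last 2 overlap the same replicate 2 peak. The 12 runs spanned 4105 to 7373 bp. In 7 of the 12 the widest gap between neighbouring peaks was of nearly the same length, 4323 bp in Lsamp, 4277 bp in Patj, a polarity protein gene, 4329 bp in Pld1, a phospholipase gene, 4334 bp in Psd3, 4389 bp in Cacna2d1, a calcium channel subunit gene, 4304 bp in Kcnn2, a potassium channel gene, and 4323 bp in Kalrn. In each of these 7 a single peak stood on one side of that gap and the other 3 on the far side. The other 5 runs had widest gaps of 1567 to 3673 bp. This spacing was noticed after the values were seen, and runs were limited to neighbours within 5 kb. What sequence lies under them was not examined, since no genome was used here.

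Transcription factor genes of the forebrain and other tissues held a deep peak in 34 of 47 eligible cases (72.3%, background 52.4%), with 1.04 deep peaks per 100 kb, against 1.01 over all interiors. Their share over genes is read against a median interior of 243 kb, far above the 69.9 kb of all eligible genes. Zfhx3, a homeobox and zinc finger gene, and Sox5, a SoxD gene, held 14 each and Auts2, a gene of neuronal development, 13. Dach1 and Gli3 had none. The deep peaks in this list were of lower fold enrichment than deep peaks in general, with medians of 6.92 and 6.38, against 7.74 and 7.01, and no-antibody peaks were sparser, 0.167 per 100 kb against 0.336. Foxp1 held 4, with lower values of 4.70 to 7.18, and no no-antibody peak. Foxp2, its relative in the striatum, held 2, both strong: chr6:14966324-14966907 (18.5 and 15.7, pileups 54 and 42) and chr6:15136259-15136609 (15.5 and 12.1, pileups 26 and 18), with 1 no-antibody peak elsewhere in the interior.

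Lists of neuronal surface genes had high shares of genes with a deep peak and long interiors. The background was 52.4% of all eligible genes, but 91.4% of those with 200 to 400 kb of interior and 98.6% with 400 to 800 kb. Median interiors were 224 kb for axon guidance genes, 207 kb for cadherins and 286 kb for glutamate and GABA receptor genes. Synaptic and neuronal adhesion genes had 44 of 47 (93.6%) with a median interior of 738 kb and 0.781 per 100 kb, led by Lsamp, Csmd1 and Cntnap2, while Cadm1 and Cntn6 had none. Axon guidance genes had 24 of 29 (82.8%) at 0.759 per 100 kb, led by Robo1 with 11, Robo2 with 10 and Epha6 with 8, while Epha4 and Epha7 had none. Cadherins had 13 of 20 (65.0%) at 1.00, led by Pcdh15 with 14, Cdh18 with 11 and Cdh13 with 10, with none in Cdh11 and Cdh2. Glutamate and GABA receptor genes had 20 of 24 (83.3%) at 0.791, with 10 in Gabrg3, 7 in Grid1 and none in Gabra2 and Gabrb2. This list had the densest no-antibody peaks of the 10, 0.512 per 100 kb. The adhesion, guidance and receptor lists lay below the 1.01 of all interiors, and cadherins close to it. Eligible genes in general held 0.959 per 100 kb with 400 to 800 kb of interior and 0.825 with over 800 kb, beside the 0.781 of adhesion genes. Some genes with none had little room, namely Gabra2 with 37.5 kb of interior, Epha4 with 47.9 kb, Cdh11 with 53.4 kb and Epha7 with 54.4 kb.

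Among signalling genes, ion channels had 30 of 37 (81.1%) at 0.938 per 100 kb. Their median interior was 272 kb, beside 300 kb for cyclic nucleotide and kinase genes and 307 kb for growth factor and morphogen genes. The background was 52.4% of all eligible genes, but 91.4% of those with 200 to 400 kb of interior. Dpp10, a partner of potassium channels, held 13, Cacna1a 10 and Nalcn, a sodium leak channel, 7, with none in Kcnd3. Cyclic nucleotide and kinase genes had 18 of 25 (72.0%) at 0.823, led by Pde4d, Pde10a with 7 and Camk1d with 6, with none in Adcy5 and Adcy8. Pde10a, the phosphodiesterase that marks striatal spiny neurons, had lower values of 4.12 to 7.01 over 2.00 peaks per 100 kb. Growth factor and morphogen genes had 18 of 23 (78.3%) at 0.887, led by Gpc6, Lrp1b with 14 and Gpc5 with 12, with none in Bmp6 and Fgfr2. Chromatin regulators, with a short median interior of 77.3 kb, had 12 of 22 (54.5%) at 1.02, with 4 each in Cux1, Arid1b and Hdac9 and none in Ash1l and Chd6. Genes of muscle, liver, kidney and epithelium had 11 of 20 at 0.659, the lowest density of the 10 lists, led by Sgcd with 10, Esr1 with 5 and Sgcz with 4, with none in Abca12 and Abcb11. Their deep peaks had the highest median lower fold enrichment of the 10, 8.23, against 6.38 over all deep peaks. The densities of the 10 lists thus ran from 0.659 to 1.04 per 100 kb, around or below the value for all long genes. Density over all eligible genes itself differed with interior length, from 1.33 per 100 kb with up to 50 kb to 0.825 with over 800 kb. No test was run between the lists. Of the genes with none, Abcb11 and Fgfr2 had only 4.33 and 4.36 kb of interior. Ash1l had 29.0 kb, Adcy5 46.2 kb, Bmp6 54.6 kb, Chd6 61.2 kb and Abca12 67.8 kb.

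Across chromosomes, deep peaks numbered 92 on chromosome 19 to 278 on chromosome 1, and their density ran from 7.78 per Mb on chromosome 12 to 13.4 on chromosome 18, which holds the protocadherin cluster. The libraries had 74259592 and 79760948 tags in all for MEIS2 and 72763762 for the no-antibody library. Fractions of 0.90, 0.92 and 0.91 of these were removed as repeated positions. That left 7618406 and 6559629 tags for MEIS2 and 6337375 for the no-antibody library. A pileup of 1 tag is therefore worth slightly more in replicate 2 than in replicate 1, and pileups are not scaled to depth. Wilson intervals cover counting error only.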

How the data were processed

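Peaks were used as the authors deposited them, 1 list per library. Per the file headers, each library was called alone with MACS 2.2.7.1, without a control file, at a q-value cutoff of 0.05, keeping 1 tag per position and without using read pairs. The build is mm10, and Bowtie2 2.3.4, Picard and Trimmomatic were used, per the submitters' processing notes, which give MACS2 as 2.1.4. The deposited signal is the pileup at the summit, unscaled. The deposited fold enrichment is a ratio to the local expectation within a library. The deposited −log10 q-value served only for a stricter alternative. Gene positions came from the RefSeq table of GRCm38.p6, promoter windows from RefSeq's start sites for that build. The start sites used included none on chromosome 18. The partner of a peak is the replicate 2 peak that shares most bp with it. Overlaps were computed with Python 3.11.15, numpy 2.4.6 and pandas 2.3.3 and tested on simulated peaks. Densities cover each chromosome from its first to its last annotated gene.

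The peak rule and gene lists were chosen with earlier results of these data known. Every listed symbol but 1 was found on chromosomes 1 to 19, and genes of 100 kb or less were left out. Named were the 10 strongest, 3 weakest and 5 widest peaks, the 10 genes with most, the 5 densest, the 5 longest without, those nearest the limits, Meis2, Foxp1, Foxp2, Tcf12, Esr1, Alk, and per list up to 3 with most and 2 without. Some genes this rule names are not reported here. Genes named for internal promoters, and further positions in named genes, were chosen after their values were seen. A planned motif search under all peaks was not run, because no genome was used here. No test was run, since peaks of 1 library are not replicates and the control is 1 library. The alternatives were other overlap, q-value, depth and distance limits, no removal of no-antibody peaks, and each MEIS2 replicate left out.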

Additional observations from a re-analysis of the deposited data

How the results depend on the processing

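The number of deep peaks was 3544. It stayed within 1.5-fold with 50% reciprocal overlap, −log10 q of at least 5, 25 kb of depth, 2.5 kb from other gene ends and no-antibody overlaps kept, and was 1940 at 100 kb of depth. With 1 replicate left out it was 5765 to 6894, as no partner was then required. The share of the reproducible set that is deep was 7.93%, 10.9% at 25 kb and 4.34% at 100 kb of depth, and 8.34 to 9.66% with a replicate left out. The median lower fold enrichment was 6.38, 7.01 with 50% reciprocal overlap, 7.86 with −log10 q of at least 5, and 5.74 to 6.47 with a replicate left out. Density was 10.1 per Mb, 7.75 with −log10 q of at least 5, and 16.5 to 19.7 with a replicate left out. The share of eligible genes with a deep peak was 52.4%, 46.9% with −log10 q of at least 5, 70.6% at 25 kb, 60.7% at 100 kb over genes longer than 200 kb, 54.7% with no-antibody overlaps kept, and 62.2 to 64.9% with a replicate left out. The share of deep replicate 1 peaks with a partner, 61.5%, was 55.3 to 64.2% under the 3 settings run for it. These moves follow from how each setting is built (fewer or more peaks pass, or the zone changes). No paired analysis was possible because the control is 1 library and no test was run. The lowest decile of deep replicate 1 peaks by fold enrichment had a median pileup of 7 tags. How calls at such counts depend on depth was not tested.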
